A study of Mus musculus with 8 samples.

Results

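Most subunits of the mouse proteasome, with activators and assembly chaperones, are encoded by 48 protein-coding genes whose symbols run from Psma to Psmg followed by a number. These 48 genes, of 21938 protein-coding genes of the assembled chromosomes, were taken by their symbols alone, without use of any measured value. The question was which of them carry a binding site of ASH2L at their promoter. A promoter site was a site whose centre lay within 1 kb of any annotated transcription start site (TSS) of the gene. ASH2L is a core subunit of the KMT2 complexes, the enzymes that methylate histone H3 at lysine 4, a mark of active promoters.

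The sites came from ChIP-seq in iMEF, a fibroblast line from mouse embryos that was immortalised and is of the type iMEF-Ash2l fl/fl-Cre-ER. All 4 groups shared 1 genotype: the endogenous Ash2l had been inactivated, and a lentivirus supplied human ASH2L with an FKBP12F36V and HA tag at its N-terminus. The 8 libraries were ASH2L precipitates and inputs, each from cells without dTAG and from cells treated with dTAG for 1 h, with 2 replicates per group. dTAG links the tag to a ubiquitin ligase, so that the fusion protein is itself broken down by the proteasome. Such cells are selected clones of 1 line, the bound protein is a tagged human one, and the labels do not say which clone gave each library. The list analysed here pools the sites of all samples as 6444 positions in mm10, of which 6428 lie on assembled chromosomes. It holds neither a signal per library nor a depth, so the comparison without and with dTAG was not analysed here, no value has a replicate error, and a gene without a listed site may still have bound ASH2L below the calling threshold.

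The proteasome degrades proteins that carry ubiquitin chains. Its core particle is a barrel of stacked rings, in which alpha subunits form the gated outer rings and beta subunits the inner rings with the catalytic centres. A regulatory particle caps the barrel, with a ring of ATPases that unfolds the substrate and a lid and base of non-ATPase subunits that bind ubiquitin and remove it. In cells exposed to interferon, 3 alternative catalytic subunits replace the constitutive ones and form the immunoproteasome. The genes of the constitutive particle are active in nearly every cell, and many of them are known to be induced together by the factor NRF1 of the CNC family, encoded by Nfe2l1, through antioxidant response elements (AREs). That factor is a different protein from nuclear respiratory factor 1, whose motif is also called NRF1 below.

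A promoter site was found at 16 of the 48 proteasome genes (33.3%). The background share was 14% of all protein-coding genes and 19.0% of those that have a CpG island no more than 1 kb from a TSS. Every one of the 48 genes had such an island, compared to 73.4% of all protein-coding genes. When only the start of each gene was considered in place of all its TSSs, 15 genes (31.2%) had a site, against a background of 12.3%. The genes of other large protein assemblies gave other shares. Of 85 genes for cytosolic ribosomal proteins, 60 (70.6%) had a promoter site, and of 7 genes of the chaperonin CCT that were matched, of 8 listed, 2 (28.6%) did, namely Cct5 and Cct8. All these are counts in 1 list, and no test of their differences was made.

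By functional group, the share of genes with a site ranged from 0 to 62.5%, beside the background of 19.0% of genes with a CpG island. Among the alpha subunits of the core, 5 of 8 genes (62.5%) had a site, and among the beta subunits 2 of 8 (25.0%). No site was found at the 3 immunoproteasome genes. The regulatory ATPases had a site at 2 of 6 genes (33.3%) and the non-ATPases at 4 of 11 (36.4%). Of the assembly factors 2 of 7 (28.6%) had one, and of the activators and the inhibitor 1 of 5 (20.0%). The groups hold 3 to 11 genes each, and the differences between them were not tested.

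**Figure D1:**
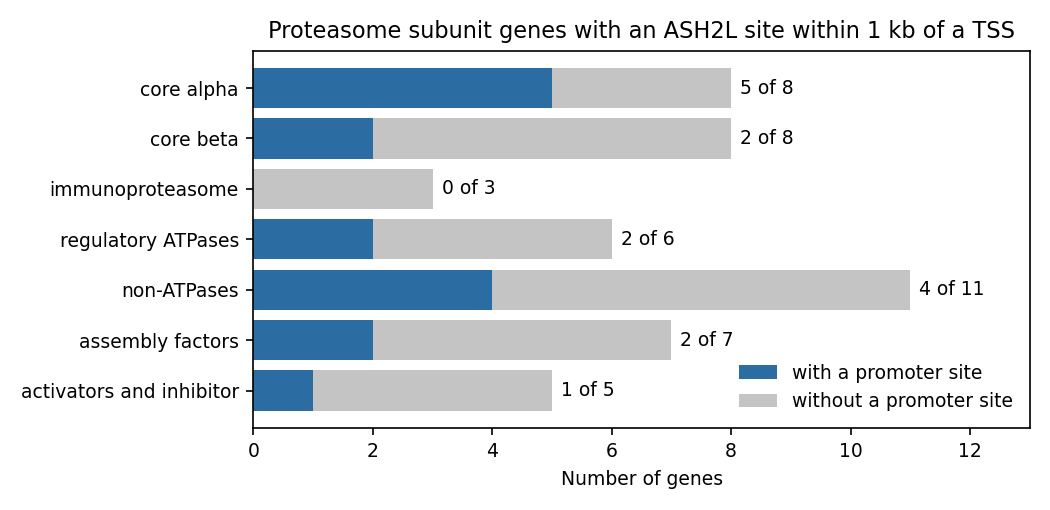
Number of proteasome subunit genes with (blue) and without (grey) an ASH2L site centred within 1 kb of a TSS, by functional group. The alpha subunits of the core had a site at 5 of 8 genes, and the immunoproteasome genes at 0 of 3.

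The alpha subunits form the outer rings through which substrates enter the core. Psma1, Psma2, Psma3, Psma6 and Psma7 had sites, all centred downstream of their nearest TSS. At Psma1 (chromosome 7, minus strand), the site at chr7:114275853-114276125 was 273 bp wide, covered the TSS and was centred 37 bp downstream of it in untranslated sequence. At Psma2 (chromosome 13, plus strand), the site at chr13:14613326-14613631 was 306 bp wide and lay in the first intron, centred 238 bp downstream. These positions differ in that the first covers a TSS and the second begins 86 bp past it.

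Psma3 (chromosome 12, plus strand) carried the widest site of all the proteasome genes, 776 bp at chr12:70974715-70975490. It began 4 bp before a TSS and reached 771 bp into the gene, with its centre in an intron 383 bp downstream, and 94.5% of all promoter sites were narrower. Psma6 (chromosome 12, plus strand) had sites at separate starts. The site at chr12:55384228-55384427 was 200 bp wide, the smallest width in the list, and was centred 105 bp downstream of the annotated start of the gene. Its other site, chr12:55398842-55399075, was 234 bp wide and centred 163 bp downstream of an internal TSS, 14736 bp from the gene's annotated start. Both were centred in coding exons. The first was the only one of the proteasome sites that touched no CpG island, with a GC content of 50.5% and 6 CpG dinucleotides, compared to 61.1% and 17 at the second.

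Psma7 (chromosome 2, minus strand) had the site farthest from its TSS, 249 bp wide at chr2:180041743-180041991 and centred 518 bp downstream in an exon of a non-coding transcript. It was centred 642 bp upstream of the start of Ss18l1, a gene on the opposite strand. No promoter site was listed for Psma4, Psma5 and Psma8. Psma5 came closest, with a site of 221 bp centred 2400 bp downstream of its TSS, while the nearest sites of Psma4 and Psma8 were 86.9 and 23.3 kb away. Psma8 encodes a form of Psma7 made in testis, and its longest CpG island of 398 bp contrasts with 1984 bp at Psma7, the longest of all the proteasome genes.

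To show what ASH2L covered at the alpha genes, the longest stretch of each site free of untranslated and coding bases is given below for all 5, limited to the central 200 bases. The sequences are from GRCm38.p6, the RefSeq assembly of the mm10 build, and run 5′ to 3′ on the strand of the gene. Capitals mark matches to the 8 motifs spelled out further below.
Psma1, chr7:114275853-114275960: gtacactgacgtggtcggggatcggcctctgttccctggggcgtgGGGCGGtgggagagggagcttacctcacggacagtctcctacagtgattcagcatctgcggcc
Psma2, chr13:14613379-14613578: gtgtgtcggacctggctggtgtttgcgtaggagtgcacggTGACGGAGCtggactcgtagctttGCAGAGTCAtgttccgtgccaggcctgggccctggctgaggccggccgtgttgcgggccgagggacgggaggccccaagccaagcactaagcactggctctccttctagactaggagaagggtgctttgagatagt
Psma3, chr12:70975003-70975202: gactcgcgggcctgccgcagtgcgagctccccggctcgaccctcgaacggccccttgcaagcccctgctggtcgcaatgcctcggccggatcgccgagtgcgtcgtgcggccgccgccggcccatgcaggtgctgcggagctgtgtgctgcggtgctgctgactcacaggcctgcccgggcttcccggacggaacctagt
Psma6, chr12:55384328-55384427: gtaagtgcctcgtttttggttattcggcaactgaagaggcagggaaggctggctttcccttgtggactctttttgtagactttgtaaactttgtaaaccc
Psma6, chr12:55398992-55399075: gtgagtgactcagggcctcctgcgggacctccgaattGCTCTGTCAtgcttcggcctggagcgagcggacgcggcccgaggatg
Psma7, chr2:180041768-180041967: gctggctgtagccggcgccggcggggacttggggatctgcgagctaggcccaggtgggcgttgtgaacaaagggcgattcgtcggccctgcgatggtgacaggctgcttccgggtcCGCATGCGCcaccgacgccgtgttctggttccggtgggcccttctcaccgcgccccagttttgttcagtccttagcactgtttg
The stretch of Psma2 held a pair of ARE matches and the second of Psma6 held 1, those of Psma1 and Psma7 held a GC box and an NRF1 match, and the remaining ones held none.

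Of the beta subunits, Psmb1 and Psmb7 had sites. Psmb1, a non-catalytic subunit of the inner ring, lies on chromosome 17 on the minus strand and had 2 sites. The narrower, 206 bp at chr17:15498185-15498390, covered an internal TSS and was centred 11 bp downstream of it in an untranslated region. The wider, 400 bp at chr17:15499788-15500187, was centred 236 bp upstream of the annotated start of Psmb1 and 27 bp downstream of a TSS of Tbp. Tbp encodes the TATA-binding protein and is transcribed in the opposite direction, so this site lay nearer to Tbp than to Psmb1.

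Psmb7 encodes the constitutive subunit with trypsin-like activity. Its site at chr2:38643640-38644036 was 397 bp wide, covered a TSS on the minus strand and was centred 82 bp downstream in an intron. Psmb5 and Psmb6, which carry the chymotrypsin-like and the caspase-like activity, had no promoter site, and their nearest sites were 40.4 and 127 kb away. The same held for the non-catalytic Psmb2, Psmb3 and Psmb4, at 150, 70.1 and 19.9 kb. Thus a site was listed at 1 of the constitutive catalytic genes, Psmb7. Psmb11, the form of Psmb5 made in thymus cortex, had the shortest CpG island of the 48 genes (294 bp) and its nearest site at 43.9 kb. Psmb5 and Psmb11 are neighbours on chromosome 14 and shared this nearest site.

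The immunoproteasome subunits Psmb8, Psmb9 and Psmb10 take the places of Psmb5, Psmb6 and Psmb7. Their nearest sites lay 70.7, 56.5 and 36.4 kb away. Psmb8 and Psmb9 are neighbours in the major histocompatibility complex on chromosome 17 and had the same nearest site, 200 bp wide and starting at 34126902. All 3 genes had a CpG island, of 606, 596 and 883 bp. Those of Psmb8 and Psmb9 were shorter than the shortest among the proteasome genes with a site (698 bp). The part of island length was not tested. Compared as pairs, Psmb7 had a site and Psmb10 none, whereas in the pairs Psmb5 and Psmb8, Psmb6 and Psmb9, and Psmb5 and Psmb11 neither gene had one.

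Sequences of promoters without a site are shown for comparison with those above, in the same manner, with the bases nearest the RefSeq start that are free of annotated untranslated or coding sequence.
Psmb5, chr14:54618023-54618222, minus strand: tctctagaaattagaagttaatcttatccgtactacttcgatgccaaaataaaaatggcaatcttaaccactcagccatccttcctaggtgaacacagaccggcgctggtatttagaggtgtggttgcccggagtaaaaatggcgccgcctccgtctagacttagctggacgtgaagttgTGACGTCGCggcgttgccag
Psmb6, chr11:70525186-70525385, plus strand: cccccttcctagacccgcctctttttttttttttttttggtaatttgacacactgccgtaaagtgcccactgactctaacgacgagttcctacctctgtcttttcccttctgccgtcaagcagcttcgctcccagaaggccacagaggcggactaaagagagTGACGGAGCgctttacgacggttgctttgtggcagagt
Psmb10, chr8:105938445-105938642, minus strand: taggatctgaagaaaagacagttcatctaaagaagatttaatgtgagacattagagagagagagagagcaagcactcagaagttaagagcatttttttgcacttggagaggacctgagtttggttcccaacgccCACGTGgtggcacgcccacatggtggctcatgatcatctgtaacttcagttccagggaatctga
The constitutive genes Psmb5 and Psmb6 each held an ARE match in this stretch, and Psmb10 held an E-box instead.

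In the ATPase ring, which unfolds substrates and opens the gate of the core, Psmc1 and Psmc2 had sites. The site of Psmc1 (chromosome 12, plus strand), chr12:100109996-100110247, was 252 bp wide and centred 33 bp upstream of the start. Its GC content of 47.6% was the lowest of the proteasome sites, although its observed to expected CpG ratio was 1.05. Psmc2 (chromosome 5, plus strand) had a site of 207 bp at chr5:21785136-21785342, centred 44 bp upstream of its start. That site was centred only 12 bp downstream of a TSS of Dnajc2, a ribosome-associated chaperone gene on the opposite strand whose start lies 32 bp from that of Psmc2. Both sites covered the start of the ATPase gene. No promoter site was found at Psmc3, Psmc4, Psmc5 and Psmc6, whose nearest sites lay at 12.3, 185, 16.7 and 11.0 kb.

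Among the non-ATPases, sites were found at Psmd1, Psmd3, Psmd6 and Psmd11. Psmd1, a large scaffold of the base (chromosome 1, plus strand), had a site of 547 bp at chr1:86064310-86064856, which covered a TSS and was centred 36 bp upstream of it in an exon of a non-coding transcript. Psmd3 and Psmd6 are structural subunits of the lid. At Psmd3 (chromosome 11, plus strand) the site chr11:98682373-98682827 was 455 bp wide and centred 9 bp downstream of a TSS. At Psmd6 (chromosome 14, minus strand) the site chr14:14120735-14121111 was 377 bp wide and centred 10 bp downstream. Both were centred in untranslated sequence and extended to either side of the TSS by similar lengths.

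Psmd11, the lid subunit that clamps the regulatory particle to the alpha ring, differed from these. Its site at chr11:80428802-80429193 was 392 bp wide, began 112 bp past the TSS on the plus strand and was centred 307 bp downstream in an intron. It had the highest GC content of the proteasome sites, 71.4%. The remaining 7 non-ATPase genes had no promoter site. These were the ubiquitin receptor Psmd4, the deubiquitinase Psmd14, its partner Psmd7, the large base subunit Psmd2 and the lid subunits Psmd8, Psmd12 and Psmd13. Psmd12 had a site of 249 bp centred 8185 bp upstream, and for the others the nearest site lay between 13.6 kb (Psmd2) and 334 kb (Psmd13) away.

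Assembly factors are chaperones that leave the complex once it is built. Psmg1 to Psmg4 help to assemble the alpha ring, and Psmd5, Psmd9 and Psmd10 the ATPase ring. Psmg2 (chromosome 18, plus strand) had a site of 628 bp at chr18:67641181-67641808, centred 105 bp upstream of its start and 158 bp upstream of a TSS of Cep76 on the opposite strand. With 85 CpG dinucleotides it was the most CpG-rich by number. Psmg3 (chromosome 5, minus strand) had a site of 328 bp at chr5:139826728-139827055, centred 6 bp upstream of the start and therefore closest to a start of all 18. The partners of these chaperones had no site, with the nearest at 91.4 kb for Psmg1, the partner of Psmg2, and at 86.2 kb for Psmg4, the partner of Psmg3. All 3 chaperones of the ATPase ring lacked one, at 82.0 kb for Psmd5, 27.0 kb for Psmd9 and 1130 kb for Psmd10 on the X chromosome.

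Psmf1, an inhibitor of the core particle (chromosome 2, minus strand), had a site of 567 bp at chr2:151740928-151741494. It covered an internal TSS and was centred 82 bp downstream of it in untranslated sequence, 2975 bp from the gene's annotated start, so that it was not counted when only the gene start was used. The activators Psme1 and Psme2, which are induced by interferon, the nuclear Psme3 and the large Psme4 had none, and their nearest sites were 62.6, 52.3, 38.2 and 89.0 kb away.

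For 4 genes outside the alpha group, whose sites extended upstream of a TSS, the same kind of stretch is shown.
Psmc1, chr12:100109996-100110153, plus strand: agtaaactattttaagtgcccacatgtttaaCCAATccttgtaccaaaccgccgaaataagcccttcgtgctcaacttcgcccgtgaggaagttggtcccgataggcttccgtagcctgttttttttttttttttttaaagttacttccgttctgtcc
Psmd6, chr14:14120985-14121111, minus strand: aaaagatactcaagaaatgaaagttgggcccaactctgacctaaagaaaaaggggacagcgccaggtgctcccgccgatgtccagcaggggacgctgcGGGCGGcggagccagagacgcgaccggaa
Psmg3, chr5:139826886-139827055, minus strand: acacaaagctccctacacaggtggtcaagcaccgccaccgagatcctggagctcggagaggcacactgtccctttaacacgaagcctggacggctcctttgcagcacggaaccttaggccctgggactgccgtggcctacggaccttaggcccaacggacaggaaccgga
Psmf1, chr2:151741311-151741494, minus strand: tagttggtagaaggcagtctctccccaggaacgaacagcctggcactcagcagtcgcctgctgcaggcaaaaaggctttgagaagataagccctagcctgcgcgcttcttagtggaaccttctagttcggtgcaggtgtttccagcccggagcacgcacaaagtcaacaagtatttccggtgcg
Psmc1 held a CCAAT box, Psmd6 a GC box, and the stretches of Psmg3 and Psmf1 no match. Those of Psmd6 and Psmg3 end within an ETS match, which is completed by the first bases of the exon.

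**Figure D2:**
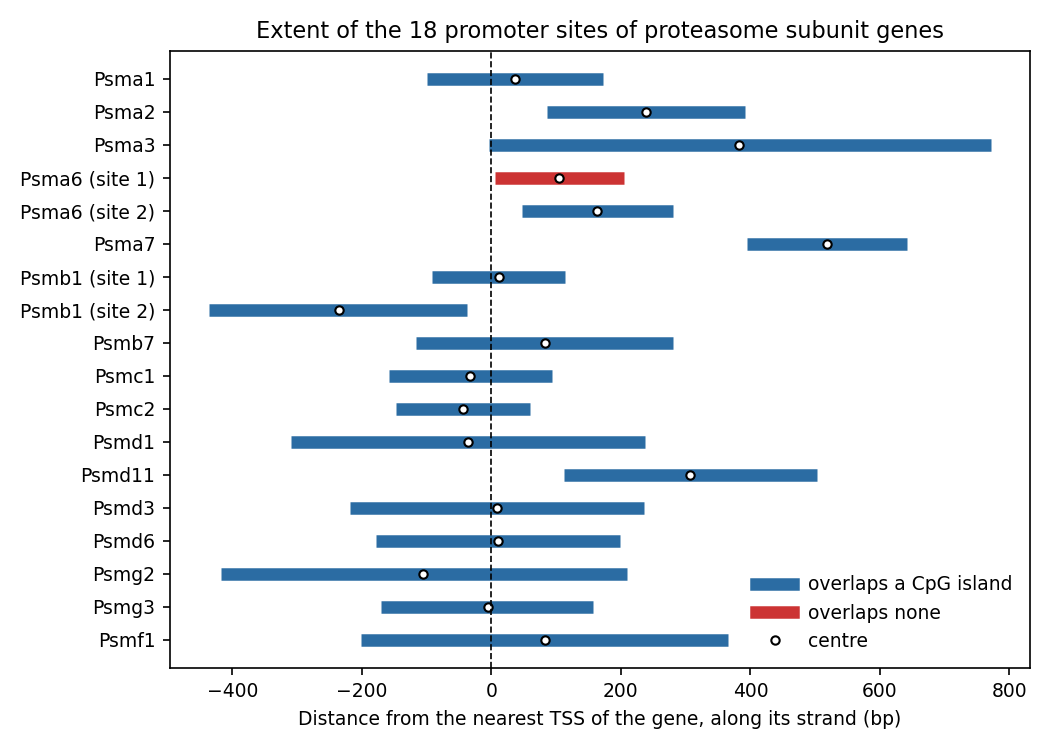
Extent of the 18 promoter sites (bars) along the strand of each proteasome gene in bp, with 0 at the nearest TSS of the gene (dashed line) and the centre of each site as a circle. Blue bars overlap a CpG island and the red bar, at Psma6, overlaps none. The bars of 12 sites cross the TSS, and the site of Psma3 reaches farthest into its gene, to 771 bp.

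Altogether the 16 genes had 18 sites, with 14 genes having 1 site each and Psma6 and Psmb1 having 2. The centres had a median offset of 24 bp downstream of the nearest TSS of the gene, with a range from 236 bp upstream (offset -236) to 518 bp downstream. Over the 3168 promoter sites of all protein-coding genes the median offset was 74 bp. The value depends on the TSSs used. With the starts of genes only, the medians were 105 bp for the proteasome sites and 185.5 bp for all, and with TSSs of protein-coding transcripts 53.5 and 110 bp. Of the 18 centres, 12 (66.7%) lay downstream and 6 upstream, and 12 sites (66.7%) covered a TSS of the gene. Over the 3640 pairs of a protein-coding gene and a promoter site, 61.4% were centred downstream and 53.4% covered a TSS. Counted over the 3168 sites, each by its nearest TSS, 67.0% were centred downstream. By annotation, 5 centres fell into untranslated regions (27.8%, compared to 29.9% of all pairs), 2 into coding exons (11.1% and 13.3%) and 2 into exons of non-coding transcripts (11.1% and 4.42%). Another 4 fell into introns (22.2% and 31.7%) and 5 upstream of the gene (27.8% and 20.6%).

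The width of the proteasome sites ranged from 200 to 776 bp with a median of 352.5 bp. All promoter sites had a median of 305 bp, with quartiles of 232 and 425 bp. At the lower end, 1 of the 18 sites had the minimum width of 200 bp, as had 9.25% of all promoter sites. None of the 18 came near the widest promoter site of the list, 4095 bp. Width was the only graded value of a site, and without a signal it does not give the amount of ASH2L.

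**Figure D3:**
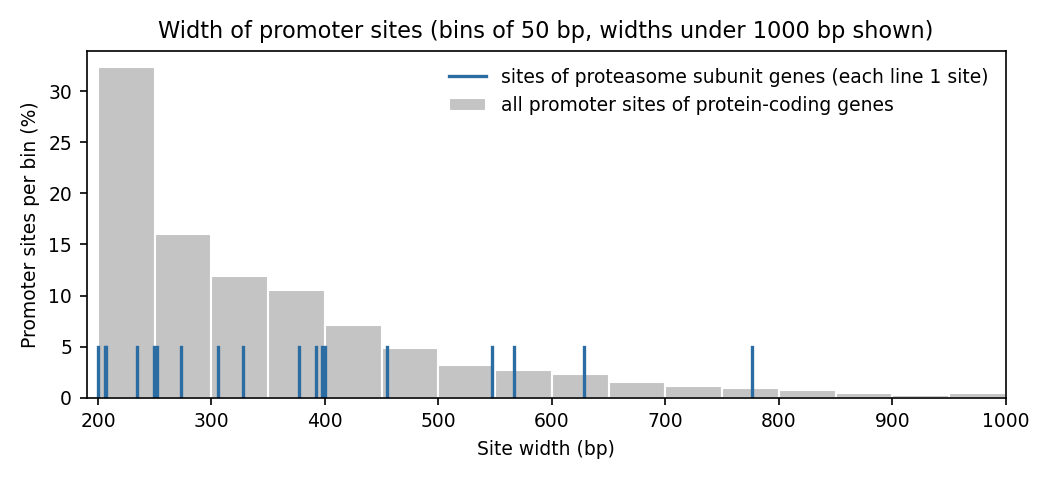
Width in bp of the 18 sites of proteasome genes (blue lines) over the distribution of all 3168 promoter sites of protein-coding genes (grey, percent per bin of 50 bp, widths under 1000 bp shown). The proteasome sites range from 200 to 776 bp.

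Of the 18 sites, 17 (94.4%) overlapped a CpG island and 13 (72.2%) lay wholly within one, near the shares of 92.0% and 75.3% over all promoter sites. The median GC content was 62.75% (47.6% to 71.4%), compared to 66.5% over all promoter sites, and the median observed to expected CpG ratio was 0.853 against 0.878. A site held between 6 and 85 CpG dinucleotides, with a median of 28. The longest island within 1 kb of a TSS had a median length of 929 bp in the 16 genes with a site and 775.5 bp in the 32 without, and the ranges overlapped (698 to 1984 bp and 294 to 1301 bp). Over all protein-coding genes with an island the median was 925 bp, with 1133 bp in those with a site and 871 bp in those without. The 4 proteasome genes with islands shorter than 500 bp, Psma8, Psmb11, Psmd10 and Psme1, all lacked a site, as did nearly all protein-coding genes with such short islands, of which 2.63% had one. Island length is thus a measured difference that goes along with the presence of a site, and its part in it was not tested. The number of annotated TSSs, which gives a gene more chances to be counted, had a median of 4.5 with a site and 5.5 without. Over all protein-coding genes the median was 3, and the order was the reverse, with 5 in genes with a site and 3 in those without.

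Beyond the window of 1 kb, the 32 genes without a promoter site had their nearest site at a median distance of 59.6 kb. Psma5 and Psmd12 were the only ones among them with a site within 10 kb. Counted together with the others, 18 of 48 (37.5%) had a site within this distance, compared to 19.3% of all protein-coding genes. The distances left a gap between 518 bp (Psma7, the farthest site counted) and 2400 bp (Psma5, the nearest not counted).

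**Figure D4:**
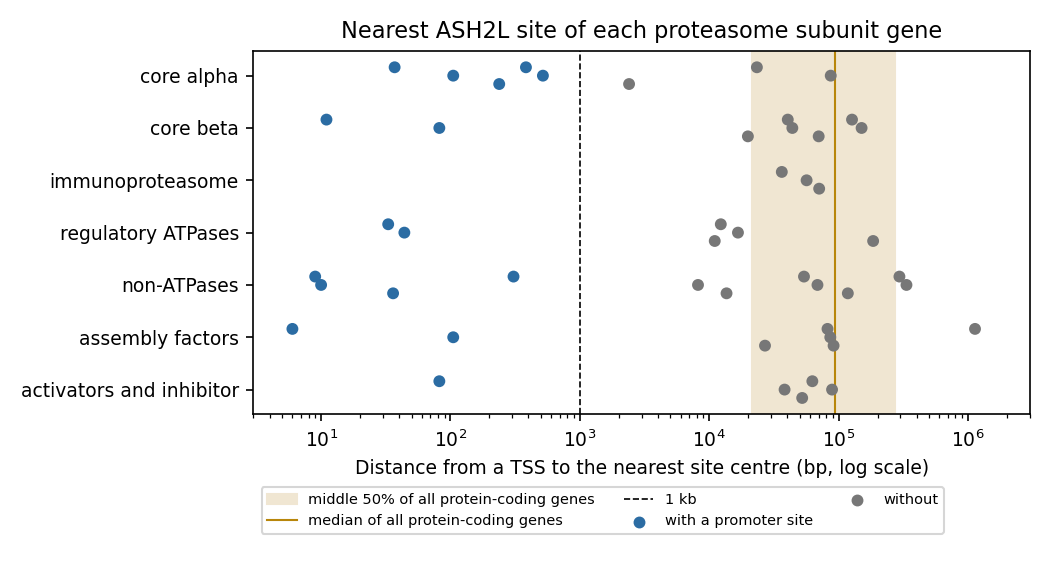
Distance in bp (log axis) from a TSS of each of the 48 proteasome genes to the centre of the nearest ASH2L site, by functional group. Genes with a promoter site (blue) lie between 6 and 518 bp, and of the genes without one (grey) only Psma5 and Psmd12 lie below 10 kb.

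Several proteasome genes share their promoter with a gene read in the opposite direction. Counted was an antisense TSS within 1 kb upstream of any TSS of a gene, whether or not a site lay there. This was annotated for 13 of the 48 genes (27.1%), compared to 18.3% of all protein-coding genes. With a site, 6 of 16 (37.5%) were of this kind, compared to 36.7% of all protein-coding genes with a site. With protein-coding partners only, the shares were 37.5% and 24.8%. Their partners were the mitochondrial ribosomal protein gene Mrpl32 at Psma2 (75 bp apart), Ss18l1 at Psma7 (76 bp), Tbp at Psmb1 (137 bp), Dnajc2 at Psmc2 (32 bp), the serotonin receptor gene Htr2b at Psmd1 (145 bp) and Cep76 at Psmg2 (263 bp). Without a site, 7 of 32 (21.9%, compared to 15.2% of all genes without a site) were, namely Psma4, Psmb9, Psmc3, Psmc5, Psmd10, Psmd13 and Psme2. The closest of these pairs was Psmb9 with the peptide transporter gene Tap1, 38 bp apart and without a site at either gene. Counted by site, 6 of the 18 (33.3%, compared to 25.5% of all pairs of a gene and a promoter site) had the TSS of another protein-coding gene within 1 kb. These were the sites of Psma2, Psma7, Psmc2, Psmg2 and Psmg3 and the wider site of Psmb1. Of them, the sites at Psmb1 and Psmc2 lay nearer to the other gene. The site of Psmd1 was not among the 6. The Htr2b TSS lies upstream of another TSS of Psmd1, more than 1 kb from the centre of that site. The list does not say to which gene of such a pair a site belongs.

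The proteasome genes lie on 16 chromosomes. On chromosome 12 all 3 of them, Psma3, Psma6 and Psmc1, had a site, where 20.1% of all protein-coding genes did. Chromosome 11 carries the largest number, with a site at 2 of 8 genes (13.2% of all genes there). Chromosomes 2 and 14 carry 6 each, with a site at 3 (15.6% of all genes) and 1 (11.6%). None of the 3 genes of chromosome 3 (Psma5, Psmb4 and Psmd4) had one, where 17.0% of all genes did. Shares over all genes were low on chromosome 7 (7.17%), where 1 of 4 proteasome genes had a site. They were also low on the X chromosome (2.53%), which carries only Psmd10, without a site.

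To describe the promoters by sequence, 8 short motifs were searched on both strands from 250 bases before to 50 bases after the start of each gene. These were the ARE (TGACNNNGC), the CCAAT box (CCAAT), the ETS motif (CCGGAAGT), the YY1 motif (AAGATGGCG), the motif of nuclear respiratory factor 1, NRF1 (GCGCATGCG), the GC box (GGGCGG), the CRE (TGACGTCA) and the E-box (CACGTG). The ARE and the CRE share their first 4 letters, the ARE also takes in AP-1 sites that are followed by GC, and the NRF1 motif nearly reads the same on both strands, so that 1 place can count as 2 matches. A match describes letters and not binding. The window lies at the annotated start of the gene, which is not where every site lies. The site of Psmf1 was centred 2975 bp from that start and the narrower site of Psmb1 1464 bp. Counts in genes with a site thus describe in part sequence away from the site.

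The ETS motif was found in 8 of the 48 windows (16.7%), compared to 4.70% of all protein-coding genes, 10.6% of all those with a site and 16.5% of the cytosolic ribosomal protein genes. Of these, 4 had a site (Psmc1, Psmc2, Psmd6 and Psmg3) and 4 had none (Psma8, Psmd12, Psme3 and Psme4). In the 4 genes with both, the ETS match lay within the site, and the site of Psmb7 held an ETS match outside its start window. The 30 bases around these matches are shown on the strand of the gene, with the match in capitals.
Psmc1, chr12:100110162-100110191: ttggtggatgcACTTCCGGcggtggcgatt
Psmc2, chr5:21785179-21785208: gaccagtgagcACTTCCGGgatggggctcg
Psmd6, chr14:14120972-14121001: cagagacgcgaCCGGAAGTcagactggcgg
Psmg3, chr5:139826872-139826901: acggacaggaaCCGGAAGTtctcgccggga
The match began 29 bp upstream of the RefSeq start in Psmc1 (offset -29), 85 bp upstream in Psmc2 (offset -85) and 45 bp upstream in Psmd6 (offset -45), and 4 bp downstream in Psmg3. RefSeq starts differ from the GENCODE starts to which the sites are referred. By the GENCODE start of the gene, the match lay downstream in Psmc1 and began upstream in Psmg3. The match was in the reverse orientation in both ATPase genes and in the forward orientation in Psmd6 and Psmg3.

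An ARE was found in the start window of 6 genes (12.5%), Psmb2, Psmb5, Psmb6, Psmc6, Psmd7 and Psmd12, and none of these had a site. All protein-coding genes had a match at the same share of 12.5%, with 14.2% among those with a site and 12.3% among those without. This count depends on the window. From 250 bp before to 250 bp after the start, 16 of the 48 genes (33.3%) held an ARE, 4 of 16 with a site and 12 of 32 without, compared to 19.9% of all genes. The picture was another one when the windows followed the sites. In windows of 200 bp at the site centres, 5 of the 18 proteasome sites (27.8%) held an ARE, compared to 8.65% of all promoter sites. These were the sites of Psma1, Psma2, Psmd1 and Psmd3 and the second site of Psma6, so that their matches lay more than 50 bases past the annotated start of the gene.

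CCAAT boxes occurred in 18 of the 48 windows (37.5%), against 39.0% of all genes. Among the alpha subunits, all 5 genes with a site and none of the 3 without had one in this window, but with 250 bp either side of the start Psma5, which has no site, had one as well. In the whole set they were present in 8 of 16 genes with a site and 10 of 32 without. Over all protein-coding genes the order was the reverse, 34.4% with a site and 39.8% without. A GC box was found in 27 windows (56.2%, compared to 43.0% of all genes), in 6 of 16 genes with a site and 21 of 32 without. Here too all protein-coding genes had the opposite order, 59.3% with a site and 40.3% without.

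The rarer motifs gave few matches. The YY1 motif was found in Psmb6, Psmc5 and Psmd7 (6.25%, compared to 1.70% of all genes), the NRF1 motif in Psma2 and Psmg1 (4.17% and 2.48%), the CRE in Psmb2 and Psmb8 (4.17% and 2.43%), and the E-box in 6 genes (12.5% and 7.75%). Of these, only Psma2 had a site. With 250 bp either side of the start the YY1 motif was found in 5 genes, Psmb7 and Psmd11 being added (10.4%, compared to 2.84% of all genes), and in the RefSeq windows the CRE was found in 0. In the windows at the site centres, the ETS motif was present in 4 of 18 (22.2%, compared to 5.59% of all promoter sites), the GC box in 6 (33.3% and 47.2%) and the CCAAT box in 3 (16.7% and 10.6%). The YY1 motif occurred at 1 site, of Psmb7 (5.56% and 2.11%), and the NRF1 motif at 1, of Psma7 (5.56% and 0.631%). The CRE and the E-box were found at 0 of the 18 sites, and at 0.915% and 3.31% of all promoter sites.

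**Figure D5:**
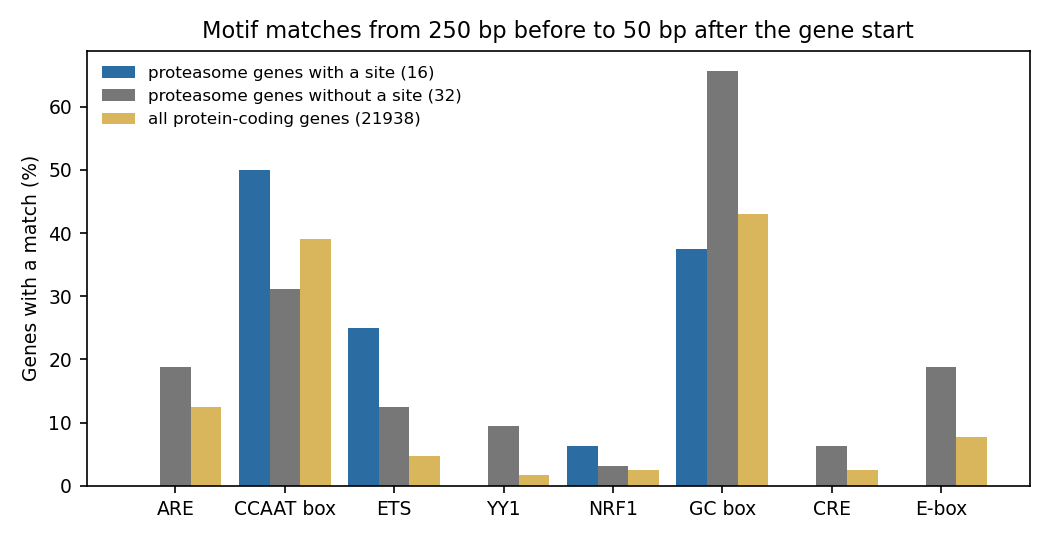
Share of genes (percent) with a match to each of 8 motifs from 250 bp before to 50 bp after the gene start, for proteasome genes with a site (16, blue), those without (32, grey) and all protein-coding genes (21938, yellow). The ETS motif is present in 4 of 16 and 4 of 32 proteasome genes, and the ARE in 0 of 16 and 6 of 32.

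Other genes of the ubiquitin-proteasome pathway were taken from a list by role. Among factors bound to the proteasome, 5 of 8 had a site, against the background of 14% of all protein-coding genes and 19.0% of those with an island, which holds for the counts that follow as well. These were Sem1, a small lid subunit (563 bp wide, offset 158 bp), the ubiquitin receptor Adrm1 (sites of 200 and 380 bp), the deubiquitinases Uchl5 (408 bp) and Usp14 (255 bp), and the adaptor Ecpas. The site of 1660 bp at Ecpas was wider than any at the proteasome genes. Pomp, the maturation factor of the core, Txnl1 and Akirin2 had none.

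The ubiquitin genes Ubb (233 bp) and Rps27a (634 bp) had a site, and the activating enzyme genes Uba1 and Uba6 had none. Of genes that deliver substrates, Vcp (607 bp), Nploc4 (353 bp), Ubqln1 (444 and 218 bp) and Ubqln2 (419 bp) had a site. For the regulators, Nfe2l2 (347 bp) and the protease Ddi2 (311 bp) had one, but not Nfe2l1 and Ngly1. In the ligase used by dTAG, Crbn (235 bp), Ddb1 (242 bp) and Cul4a (371 bp) had a site and Rbx1 had none. Of 4 antigen processing genes Erap1 (360 bp) had one, while Tap1, Tap2 and Tapbp, which lie on chromosome 17 as Psmb8 and Psmb9 do, had none.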

How the data were processed

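ChIP-seq reads of the 8 iMEF libraries were, per the study's methods and the submitters' processing notes, trimmed with Trim Galore, aligned to mm10 with BWA and filtered with SAMtools. Replicates were merged with Picard, and narrow peaks were called with MACS2. The deposited list gives only a chromosome, a start and an end per site for all samples together. It has no count, score or p-value, so it does not show the depth of the libraries (the methods give only a minimum number of raw reads aimed at), no interval is given, and the planned edgeR test of the dTAG effect was not run.

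Starts were read as 0-based, which makes the narrowest site 200 bp wide, and are printed 1-based. TSSs, genes and exons were those of GENCODE mouse release 21. CpG islands were computed from GRCm38.p6 (at least 200 bp, GC over 50%, CpG ratio over 0.6). Promoter windows of RefSeq on GRCm38.p6 were matched for 40 of 48 genes, and sequences are printed only for matched genes. For Psmb8 and Psmb9, whose windows lie in annotated exons, none is printed.

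The genes were defined by symbol, but this set and the other lists were chosen with earlier results of these data known, so counts and medians are set beside those of all protein-coding genes, without a test. All 48 genes are named. Positions are given for those with a site, and distances for the others. Some other genes of the pathway list are not reported here, and neither is a total over that list. Alternatives changed the window, the TSS set, the assignment, the minimum width, the start convention and the motif windows. Assignment to the nearest gene only and the RefSeq windows were added after the data were seen. Python 3.11.15, NumPy 2.4.6, pandas 2.3.3, pysam 0.24.0 and matplotlib 3.10.9 were used. In simulated data, 200 of 200 planted sites were assigned to the right gene.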

Additional observations from a re-analysis of the deposited data

How the results depend on the processing

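The count of proteasome genes with a promoter site stayed between 15 and 17 under the 8 alternatives. A window of 500 bp lost Psma7, the start of the gene only lost Psmf1, and assignment to the nearest protein-coding gene only lost Psmc2, while a window of 3 kb added Psma5. The share of all protein-coding genes moved between 12.3% and 15.4%. By group, the activators and inhibitor fell from 1 gene to 0 with the start of the gene only, and the regulatory ATPases from 2 to 1 with the nearest gene only. With motif windows of 250 bp either side of the start, the ARE was found in 16 genes in place of 6 and the YY1 motif in 5 in place of 3. In the RefSeq windows of the 40 matched genes, the CRE was found in 0 in place of 2. The median offset of 24 bp became 105 bp with the start of the gene only and 53.5 bp with TSSs of protein-coding transcripts, which is less than 1 SD between sites but a large relative change. The other counts moved by at most 1.5 times and the median width by less than 1 SD. No paired analysis was possible because the list carries no value per sample. For the same reason, leaving out replicates, a stricter peak threshold and the tests of the dTAG effect with their alternatives were not run. The sites are a pooled list whose depth is not shown, so the absence of a site at a gene is not evidence of absent ASH2L.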
